A study of Drosophila melanogaster with 12 samples.

Results

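The CYP3 clan is the branch of insect cytochrome P450 enzymes that holds the Cyp6, Cyp9, Cyp28, Cyp308, Cyp309, Cyp310 and Cyp317 families in *Drosophila melanogaster*. P450 enzymes are heme proteins that insert 1 atom of molecular oxygen into a substrate and take the electrons for this step from NADPH through the reductase encoded by *Cpr*. Members of this clan sit in the endoplasmic reticulum, mainly of midgut, Malpighian tubule and fat body, and are known for the oxidation of plant compounds, insecticides and drugs, many of which raise the expression of the genes themselves. Members were chosen by gene symbol: 38 of the 17185 genes counted belong to these families, 23 to Cyp6 (13 of them to subfamily Cyp6a), 6 to Cyp9, 4 to Cyp28, 2 to Cyp309 and 1 each to Cyp308, Cyp310 and Cyp317. Another 2 genes of the annotation, the pseudogenes *Cyp6a15Psi* and *Cyp6t2Psi*, were not analysed here.

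The question was how these genes differ between larvae that lack glycerol-3-phosphate dehydrogenase (*Gpdh1*), alone or together with lactate dehydrogenase (*Ldh*), and heterozygous controls. Both enzymes regenerate cytosolic NAD+ in growing larvae. RNA of whole, pooled larvae was sequenced in 12 libraries, 3 for each of 4 genotypes that all carry *w[1118]*: *Gpdh1* heterozygotes (*Gpdh1[12]/+*), *Gpdh1* mutants (*Gpdh1[12]/[14]*), double heterozygotes (*Gpdh1[12]/+* with *Ldh[16]/+*) and double mutants (*Gpdh1[12]/[14]* with *Ldh[16]/[17]*). The heterozygotes are called the *Gpdh1* controls and the double controls here. Every control thus carries 1 mutant copy of *Gpdh1*, and the double heterozygotes also 1 of *Ldh*. All larvae were kept at 25 °C for 60 hours after egg collection. The labels call them mid-L3, an age at which the paper's methods place mid-L2. The labels also number the *Gpdh1* alleles differently from the paper.

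Between 22339930 and 26605495 counts per library fell on genes, and the CYP3 clan took between 15228 and 52443 of them. Levels are given as CPM, the counts per 1000000 of the TMM-scaled library total, and adjusted p-values come from edgeR. The targeted genes were lower in the mutants labelled for them: in double mutants the log2 fold change of *Ldh* was -6.83 (standard error, SE 0.0846, adjusted p = 6.46e-07), and that of *Gpdh1* was -2.98, against -0.85 in *Gpdh1* mutants (adjusted p = 2.43e-06 and 0.0024). *Gpdh1* RNA was thus lower in the double mutants (60.8 to 61.9 CPM) than in the *Gpdh1* mutants (232 to 288 CPM), although the labels give both the same alleles. *Ldh* was also lower in *Gpdh1* mutants, whose labels name no *Ldh* allele (log2 fold change -0.35, adjusted p = 0.00523). The spread between libraries was smallest in the double mutants, as a common biological coefficient of variation of 0.0373, against 0.0995 in *Gpdh1* mutants, 0.141 in *Gpdh1* controls and 0.212 in double controls, where replicate 2 stood apart. Double mutant replicates 1 and 2 were the closest pair, with a chi-square per gene of 2.42 between their counts. Within the other groups it was 12.8 to 118. The small standard errors in double mutants rest on this spread. Some calls within the double cross, or of the difference between the crosses, were lost when the 3 double mutant libraries were summed into 1. These losses are given with the genes. In whole larvae fewer cells of a type and less RNA per cell cannot be told apart.

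CYP3 clan genes were higher as a group in both mutants. A member passed a comparison at a Benjamini-Hochberg adjusted p under 0.05 in edgeR's quasi-likelihood test over all genes, with no fold limit. Summed over the 38 genes, the clan was at 908, 767 and 785 CPM in *Gpdh1* controls and at 1554, 1517 and 1611 CPM in *Gpdh1* mutants. It was at 777, 714 and 753 CPM in double controls and at 1764, 1772 and 1780.5 CPM in double mutants. Neither mutant overlapped its control, and the means stood 1.90 and 2.37 times above those of the controls. As a share of all gene counts the clan rose from between 0.0682% and 0.0812% to between 0.154% and 0.161% in the *Gpdh1* cross, and from between 0.0722% and 0.0755% to between 0.194% and 0.197% in the double cross.

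**Figure D1:**
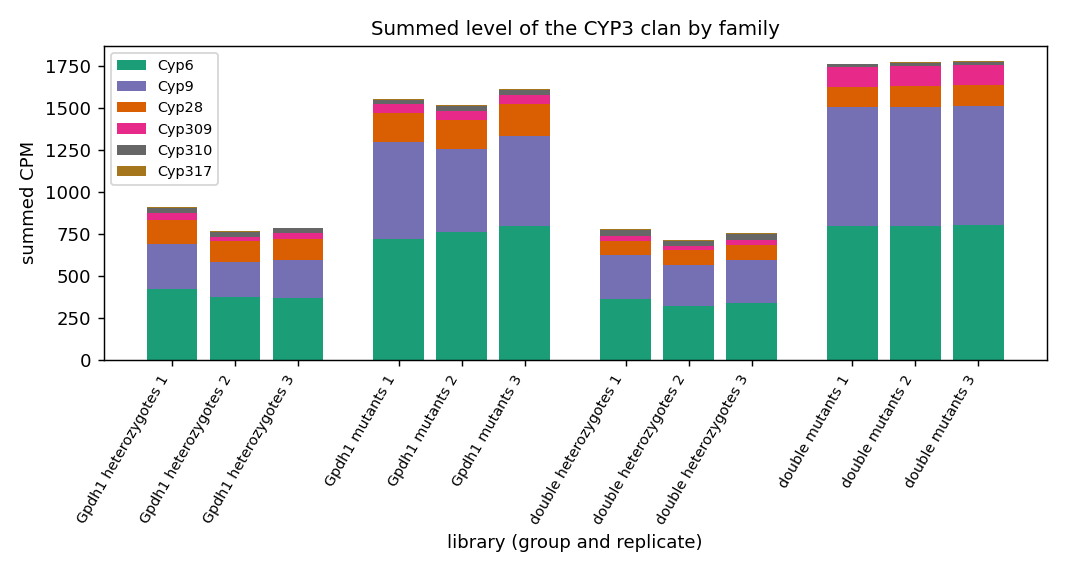
Summed CPM of the CYP3 clan in each of the 12 libraries, stacked by family (vertical axis from 0; each bar is 1 library). The 6 mutant libraries stand between 1517 and 1780.5 CPM and the 6 control libraries between 714 and 908 CPM, with Cyp6 and Cyp9 making up most of every bar.

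Of 33 members tested in *Gpdh1* mutants, 18 were higher, 4 were lower and 11 did not pass, while 17.9% of all 10592 genes tested were higher and 20.2% were lower. With a log2 fold change beyond 1 as well, 11 members were higher and none was lower, against 3.75% and 4.44% of all genes. In double mutants 21 of 33 were higher, 4 were lower and 8 did not pass, against 25.3% and 25.9% of 10650 genes, and past the fold limit 12 were higher and 1 was lower, against 6.86% and 3.57%. The median log2 fold change of the members tested was 0.46 in *Gpdh1* mutants and 0.89 in double mutants, where the median of all genes was 0.01 and -0.03. With the libraries of the double mutants summed into 1, fewer members passed in double mutants, and so did fewer of all genes.

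The same genes made up most of both counts. Of the members tested in both crosses, 16 were higher in both, 2 (*Cyp28d1* and *Cyp28d2*) were lower in both, and only *Cyp6d2* passed in opposite directions. The share of all genes passing in both crosses is not given here. Whether this overlap is particular to the clan was not tested. *Cyp317a1* and *Cyp6a23* were higher in *Gpdh1* mutants alone and *Cyp6a2* lower there alone. *Cyp6a21*, *Cyp6g1*, *Cyp9f3* and *Cyp9h1* were higher and *Cyp310a1* and *Cyp6v1* lower in double mutants alone. Whether these differ between the crosses is a separate test, which 19 of 34 members passed and which is given with each gene as the log2 fold change of the double cross minus that of the *Gpdh1* cross.

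**Figure D2:**
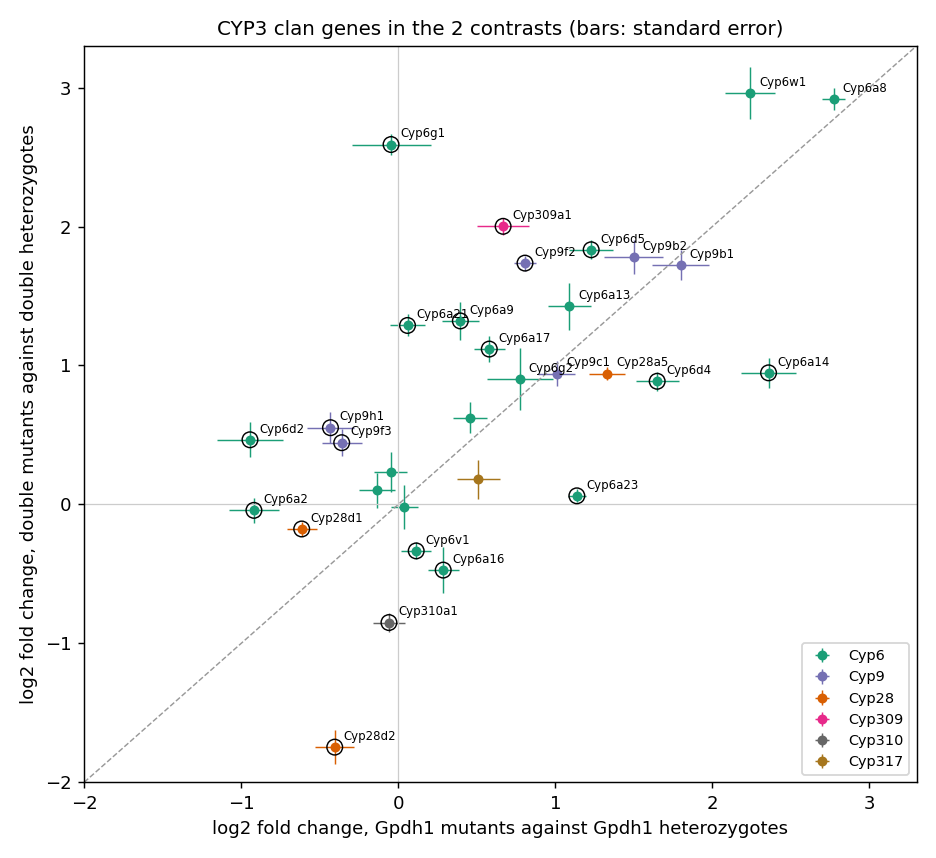
Log2 fold change of each CYP3 clan gene tested in both crosses, *Gpdh1* mutants against their controls on the horizontal axis and double mutants against theirs on the vertical axis, with standard errors as bars, colours for families and a dashed line of equal change. Black circles mark genes whose changes differed between the crosses: *Cyp6g1*, *Cyp309a1* and *Cyp6a21* lie far above the line, and *Cyp6a14*, *Cyp6a23* and *Cyp28d2* far below it.

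Markers of tissues in which these enzymes are made moved as well. All 7 midgut markers were higher in *Gpdh1* mutants and in double mutants, with a summed level of 209 to 252 CPM in *Gpdh1* controls, 336 to 351 in *Gpdh1* mutants, 279 to 314 in double controls and 629 to 636 in double mutants, and none was at 0. The 8 Malpighian tubule markers did not move together: 2 were higher and 1 was lower in *Gpdh1* mutants, 5 were higher in double mutants, and their sum was 415 to 499.8, 274 to 282, 262 to 348 and 368 to 382 CPM in the same order of groups. The urate oxidase gene *Uro* in this list was at 294 to 362, 86.9 to 107, 123 to 206 and 164 to 174 CPM. Fat body markers were mostly lower, 4 of 7 tested in *Gpdh1* mutants (2 higher) and 4 of 6 in double mutants (1 higher). Their sums were 10014 to 16142, 4168 to 5198, 6638 to 11522 and 4325 to 4600.4 CPM in the same order of groups. Lower in both mutants were *apolpp*, *Lsp1alpha*, *Lsp1beta* and *Lsp1gamma*, and *Fbp1* was higher in both. The groups were matched by age in hours, and a difference in stage between them was not tested. All 9 muscle markers were lower in *Gpdh1* mutants and 8 of 9 in double mutants. Of 5 hemocyte markers, 2 were lower in *Gpdh1* mutants and all 5 in double mutants, with sums of 172 to 214, 178 to 187, 167 to 211 and 98.8 to 103 CPM. Of 5 neuronal markers, 2 were higher in *Gpdh1* mutants and 3 in double mutants, and none was lower. Of the cuticle genes of the epidermis, 81 of 99 tested were lower and 4 higher in *Gpdh1* mutants, and in double mutants 4 of 98 were lower and 18 higher. Their sums were 31966 to 44962, 14800 to 16644, 6994 to 16509 and 9860.5 to 10332.5 CPM in the same order of groups. The controls themselves differed. Of 100 cuticle genes tested, 68 were lower and 4 higher in double controls than in *Gpdh1* controls, against 12.3% and 14.1% of all genes. The part of these shifts in the P450 results was not tested. For all genes, the shares higher and lower were 17.9% and 20.2% in *Gpdh1* mutants and 25.3% and 25.9% in double mutants.

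Levels differed widely among the members. Over the 34 genes that passed the count filter of the fit on all 12 libraries, the mean in *Gpdh1* controls ran from 0.456 CPM for *Cyp28c1* to 101 CPM for *Cyp6d5*. Per kilobase of exon, the 5 highest genes in *Gpdh1* controls were *Cyp6d5* (61.6 CPM per kilobase), *Cyp9b2* (51.3), *Cyp28d1* (46.8), *Cyp9c1* (46.3) and *Cyp28a5* (28.2). *Cyp9b2* ranked highest in each of the other groups, at 144.7 CPM per kilobase in *Gpdh1* mutants, 55.5 in double controls and 191 in double mutants. The rank of *Cyp6w1* moved furthest, from 21 in both controls to 14 in *Gpdh1* mutants and 9 in double mutants. *Cyp6a8* went from rank 12 in both controls to ranks 4 and 5 in the mutants, and *Cyp28d1* from rank 3 in *Gpdh1* controls to rank 13 in double mutants. By group mean, 17 of the 34 genes were highest in double mutants, 7 in *Gpdh1* mutants, 6 in *Gpdh1* controls and 4 in double controls. The same split over all genes is not given here, and whether it is particular to the clan was not tested. The other 4 members stayed under the filter in every comparison: *Cyp308a1* had no count in any library, which allows up to 3 counts, or 0.151 CPM, per library, and *Cyp309a2*, *Cyp6a19* and *Cyp6t3* reached at most 15, 11 and 3 counts.

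**Figure D3:**
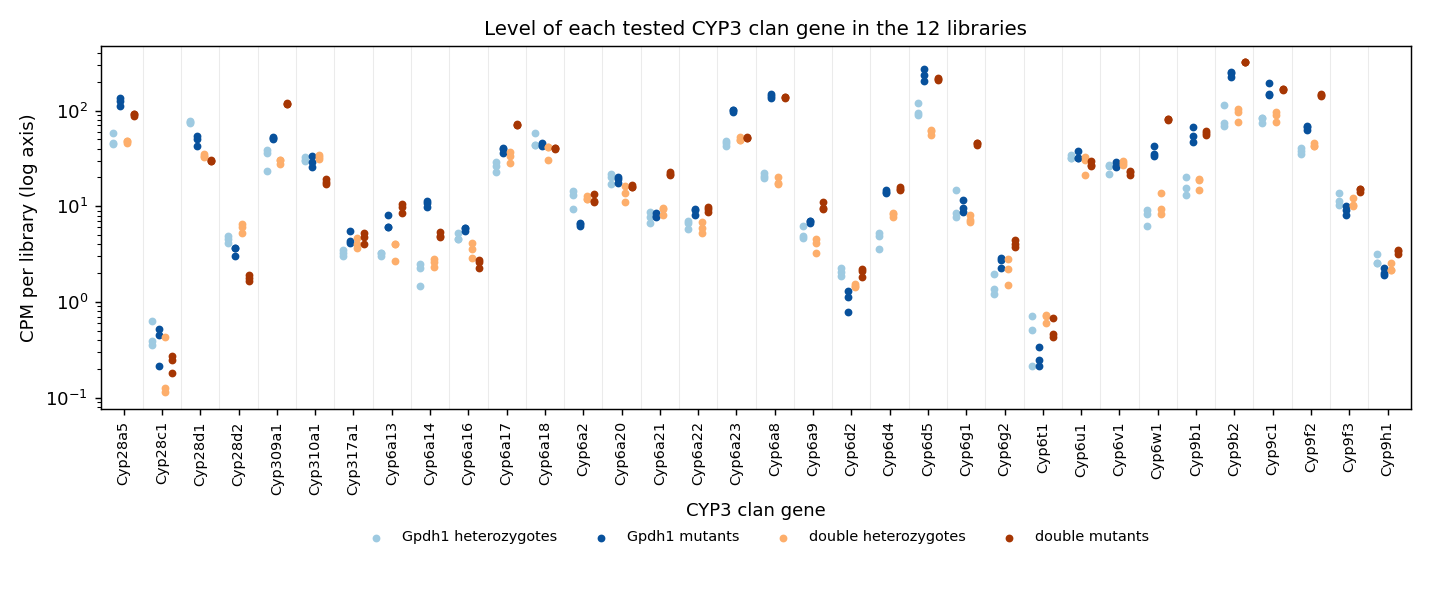
CPM of the 34 tested CYP3 clan genes in each library (log axis; 1 point per library, colours for the 4 genotypes, genes grouped by family). The mutants of both crosses stand above their controls for genes such as *Cyp6a8*, *Cyp6w1* and *Cyp9b2*, while *Cyp28c1* and *Cyp6t1* stay under 1 CPM everywhere.

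Subfamily Cyp6a holds the best known inducible P450 genes of the fly, and 8 of its 13 members lie with *Cyp317a1* in a chain of 9 genes on chromosome arm 2R, from 14871366 to 14903095 in the BDGP6.54 annotation. In *Gpdh1* mutants 7 of 12 tested Cyp6a genes were higher and 1 was lower, and in double mutants 7 were higher and none was lower. The shares of all genes were 17.9% and 20.2% in the first cross and 25.3% and 25.9% in the second. Within the chain 6 of 8 tested genes were higher in *Gpdh1* mutants and 5 of 8 in double mutants. Neighbours did not share 1 pattern.

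*Cyp6a8*, which phenobarbital and caffeine are known to induce, changed most of all members in *Gpdh1* mutants. It was at 22.2, 20.6 and 19.6 CPM in *Gpdh1* controls and at 135, 142 and 149 CPM in *Gpdh1* mutants. In double controls it was at 20.4, 17.6 and 16.9 CPM and in double mutants at 139.6, 139 and 137 CPM. The controls of the crosses overlapped, as did the mutants, and the log2 fold changes were 2.77 (SE 0.0719, adjusted p = 1.54e-05) and 2.92 (SE 0.0782, adjusted p = 3.45e-06). Their difference was 0.15 with an SE of 0.103, and it did not pass the test (adjusted p = 0.319).

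The gene next to *Cyp6a8*, *Cyp6a21*, was higher in double mutants only. Its levels were 7.73, 8.76 and 6.69 CPM in *Gpdh1* controls, 7.71, 7.83 and 8.52 in *Gpdh1* mutants, 8.05, 9.32 and 9.54 in double controls and 21.3, 21.7 and 22.7 in double mutants. The first 3 groups overlapped, and the double mutants stood apart from all of them. The log2 fold change was 1.29 in double mutants (SE 0.0793, adjusted p = 5.41e-05) and 0.06 in *Gpdh1* mutants (adjusted p = 0.715), and the difference of 1.23 passed (SE 0.138, adjusted p = 0.000228). *Cyp6a9* resembled it less sharply: it was at 4.90, 6.14 and 4.68, at 6.65, 6.96 and 6.96, at 4.15, 4.53 and 3.27 and at 9.34, 9.56 and 11 CPM in the same order of groups, with log2 fold changes of 0.40 (adjusted p = 0.0356) and 1.32 (adjusted p = 0.000398) and a difference of 0.93 (adjusted p = 0.00482). The smaller of these calls was lost without *Gpdh1* control replicate 1 or 3 or any *Gpdh1* mutant library. It was also lost in DESeq2 and with the replicate block, and its log2 fold change was 0.32 to 0.52 over 12 alternatives. *Cyp6a9* shares 397 bases of exon with *Cyp6a19* on the other strand, and the strand setting of the counting is not given in the sources used here.

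*Cyp6a23* and *Cyp6a17* are adjacent close paralogs, 1 of which changed in the *Gpdh1* cross only and the other more in the double cross. *Cyp6a17* is known for its role in temperature preference. *Cyp6a23* was at 47.6, 43.1 and 46.0 CPM in *Gpdh1* controls and 101, 96.7 and 102 in *Gpdh1* mutants, but at 52.6, 48.8 and 48.7 CPM in double controls and 51.8, 53.0 and 52.0 in double mutants. It was thus higher in the *Gpdh1* mutants than in every other library, with a log2 fold change of 1.14 (SE 0.0595, adjusted p = 0.000127) against 0.06 in double mutants (adjusted p = 0.316) and a difference of -1.07 (SE 0.0724, adjusted p = 1.67e-05). *Cyp6a17* was at 22.8, 26.6 and 29.2 CPM in *Gpdh1* controls and 41.1, 39.8 and 36.3 in *Gpdh1* mutants. In the double cross its levels went from 36.7, 33.5 and 28 CPM to 71.2, 72.1 and 70.0 CPM. It was 1.49-fold and 2.17-fold higher (adjusted p = 0.00454 and 0.000195), and the difference of 0.54 in log2 fold change (adjusted p = 0.0212) did not pass with the double mutant libraries summed (adjusted p = 0.111). Reads that align to both genes were left out by the counter, so the split between the pair is uncertain. Their sum was 69.6 to 75.2 CPM and 137 to 142 CPM in the *Gpdh1* cross and 76.7 to 89.3 CPM and 122 to 125 CPM in the double cross.

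The remaining genes of the chain changed less. *Cyp6a22* had log2 fold changes of 0.46 in *Gpdh1* mutants (adjusted p = 0.0148, lost without *Gpdh1* mutant replicate 2 or 3, with values of 0.38 to 0.53 over all alternatives) and 0.62 in double mutants (adjusted p = 0.00415, but 0.0951 with the double mutant libraries summed). *Cyp317a1* had 0.51 in *Gpdh1* mutants (adjusted p = 0.0256) and 0.18 in double mutants (adjusted p = 0.319). The first of these calls was lost with the replicate block and without *Gpdh1* control replicate 1 or 2 or *Gpdh1* mutant replicate 1. Its values were 0.39 to 0.59 over all alternatives, and 1331 exonic bases of *Cyp317a1* overlap *Kank* on the other strand. *Cyp6a20*, a gene linked to male aggression, passed in neither cross, with levels of 17.1 to 21.5, 17.3 to 20.1, 11 to 16.4 and 15.9 to 16.6 CPM, but was lower in double controls than in *Gpdh1* controls (log2 fold change -0.52, adjusted p = 0.0161; -0.45 and adjusted p = 0.0604 without *Gpdh1* control replicate 2).

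**Figure D4:**
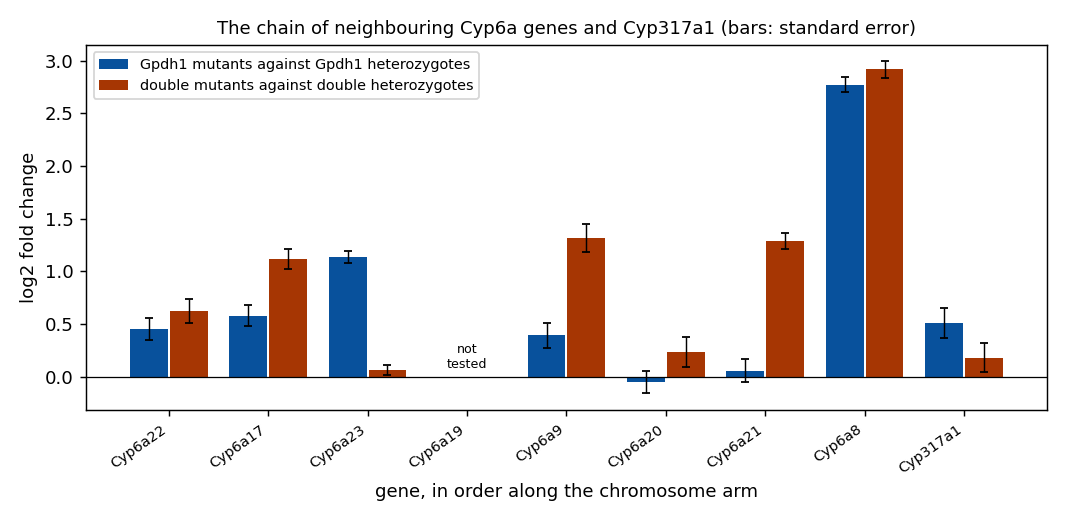
Log2 fold changes of the 9 neighbouring genes in their order along the arm, *Gpdh1* mutants against *Gpdh1* controls in blue and double mutants against double controls in brown (bars start at 0, error bars are standard errors). *Cyp6a8* is high in both crosses, *Cyp6a23* in the *Gpdh1* cross and *Cyp6a21* in the double cross, and *Cyp6a19* was not tested for lack of counts.

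Elsewhere on 2R, *Cyp6a14* and *Cyp6a13* are neighbours of which the first changed more in *Gpdh1* mutants. *Cyp6a14* was at 2.25, 1.46 and 2.49 CPM in *Gpdh1* controls, 11.4, 9.72 and 10.9 in *Gpdh1* mutants, 2.32, 2.59 and 2.79 in double controls and 5.32, 4.84 and 4.72 in double mutants. No mutant library overlapped a control, and the log2 fold changes were 2.36 (SE 0.174, adjusted p = 0.000309) and 0.95 (SE 0.11, adjusted p = 0.000681), with a difference of -1.41 (SE 0.217, adjusted p = 0.00122). *Cyp6a13* rose in both crosses, from 3.05 to 3.23 CPM to 6.06 to 8.03 CPM and from 2.71 to 4.07 CPM to 8.47 to 10.6 CPM, by log2 fold changes of 1.09 and 1.43 (adjusted p = 0.00152 and 0.000754). The difference between its changes was 0.34 (SE 0.234, adjusted p = 0.317).

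*Cyp6a2*, an enzyme known to metabolise DDT and other insecticides, went the other way in *Gpdh1* mutants. It was at 13.1, 14.5 and 9.35 CPM in *Gpdh1* controls and 6.65, 6.26 and 6.53 in *Gpdh1* mutants, while the double controls (12.9, 12.0 and 11.9) and double mutants (11, 11.3 and 13.3) overlapped. Its log2 fold changes were -0.92 (SE 0.16, adjusted p = 0.00483) and -0.04 (adjusted p = 0.717), and they differed by 0.88 (adjusted p = 0.00848). *Cyp6a16* on 2L passed in neither cross (0.29 with adjusted p = 0.0576 and -0.47 with adjusted p = 0.0537), yet its changes differed by -0.75 (adjusted p = 0.0155; 0.0881 with the double mutant libraries summed). It was at 4.54 to 5.24, 5.46 to 5.97, 2.86 to 4.17 and 2.26 to 2.77 CPM, and lies 319.9 kb from *Gpdh1*. *Cyp6a18* on 3R did not pass any comparison, at 43.3 to 57.9, 42.8 to 45.4, 30.1 to 41.8 and 40.0 to 40.9 CPM.

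*Cyp6w1*, whose overexpression is known to give DDT resistance, rose most of all members in double mutants. It was at 6.15, 9.06 and 8.32 CPM in *Gpdh1* controls and 33.4, 35.1 and 42.6 in *Gpdh1* mutants. In the double cross it went from 9.25, 13.8 and 8.21 CPM to 81.9, 82.1 and 80.6 CPM. All mutant libraries were above all control libraries, with log2 fold changes of 2.24 (SE 0.159, adjusted p = 0.000268) and 2.96 (SE 0.188, adjusted p = 6.05e-05). The difference of 0.72 did not pass (SE 0.26, adjusted p = 0.0648), but the level was higher in double mutants than in *Gpdh1* mutants (log2 fold change 1.14, adjusted p = 0.000501).

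*Cyp6g1* differed most between the crosses. Its overexpression is the textbook case of DDT and neonicotinoid resistance in wild flies, and it is made in midgut, Malpighian tubule and fat body. It was at 14.7, 7.65 and 8.49 CPM in *Gpdh1* controls and 9.53, 11.7 and 8.6 in *Gpdh1* mutants, which overlapped. In double controls it was at 7.26, 8.18 and 6.87 CPM and in double mutants at 45.3, 43.7 and 45.7 CPM. The log2 fold changes were -0.05 (SE 0.252, adjusted p = 0.904) and 2.59 (SE 0.073, adjusted p = 3.65e-06), a difference of 2.64 (SE 0.291, adjusted p = 0.00021). The control groups did not differ at this threshold (log2 fold change -0.47, SE 0.212, adjusted p = 0.129). Its neighbour *Cyp6g2*, known from the corpora allata, shares 94 exonic bases with it on the other strand. *Cyp6g2* had low levels of 1.21 to 1.98, 2.25 to 2.84, 1.49 to 2.84 and 3.74 to 4.48 CPM, with log2 fold changes of 0.77 (adjusted p = 0.0247) and 0.90 (adjusted p = 0.0152). The first was lost with the replicate block and without *Gpdh1* control replicate 2 or 3 or *Gpdh1* mutant replicate 2 or 3 (0.64 to 1.01 over all alternatives). The second was lost without double mutant replicate 3 and with the summed libraries (0.70 to 1.14). *Cyp6t3*, the third gene at this place, which is known to act in ecdysone synthesis in the prothoracic gland, had at most 3 counts in a library.

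**Figure D5:**
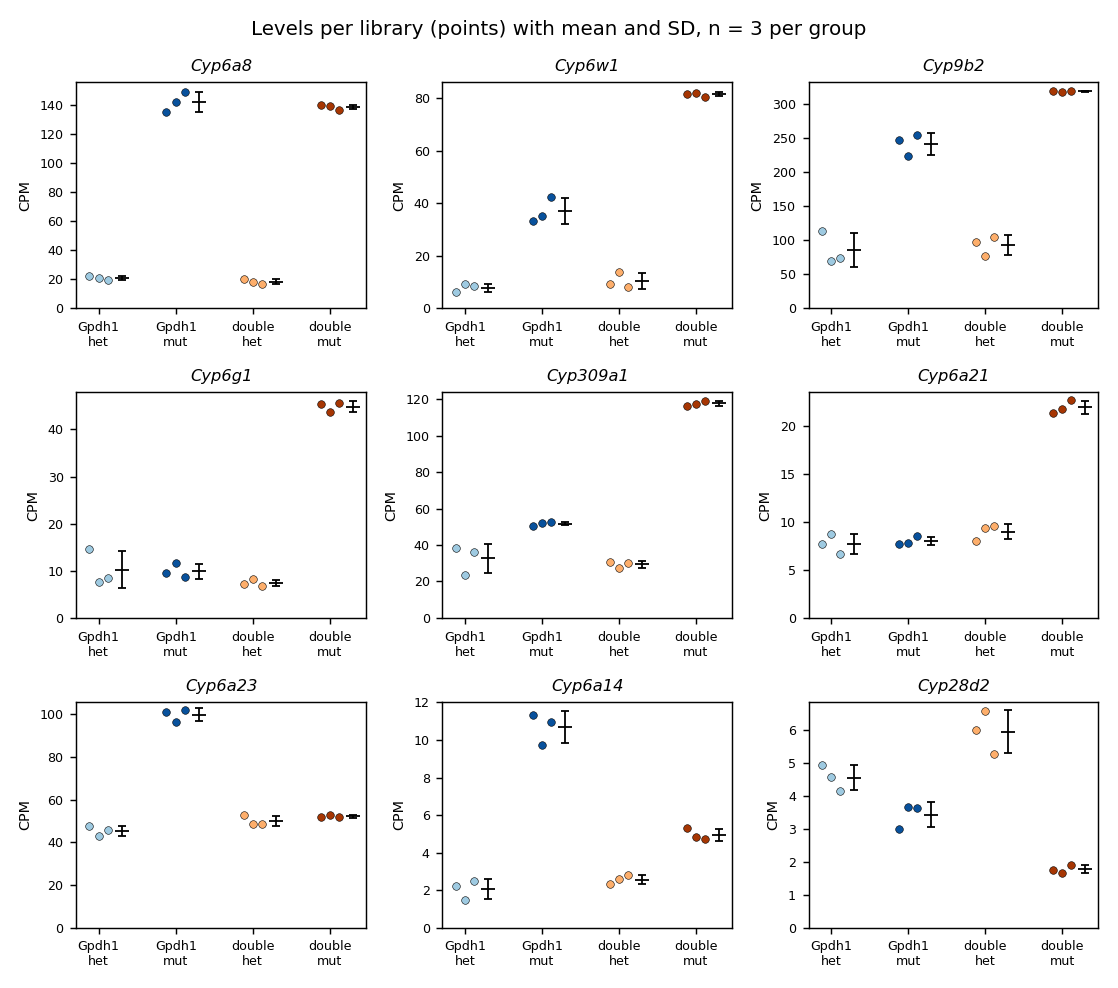
CPM of 9 CYP3 clan genes in each library (points) with the mean and SD of the 3 libraries beside them (vertical axes from 0). The top row rose in both crosses, *Cyp6g1*, *Cyp309a1* and *Cyp6a21* rose most or only in double mutants, and *Cyp6a23* and *Cyp6a14* peaked in *Gpdh1* mutants, while *Cyp28d2* was lowest in double mutants at 1.66 to 1.90 CPM.

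The 3 Cyp6d genes each behaved differently. *Cyp6d5*, which has been linked to caffeine metabolism, was the most abundant member per kilobase in *Gpdh1* controls. It was at 119, 90.3 and 93.9 CPM there and at 204, 233 and 271 CPM in *Gpdh1* mutants, and went from 60.8, 55.0 and 63.2 CPM to 212, 209 and 218 CPM in the double cross. The log2 fold changes were 1.23 (SE 0.139, adjusted p = 0.00104) and 1.83 (SE 0.0669, adjusted p = 8.63e-06). They differed by 0.61 (adjusted p = 0.0223). The comparison of the mutants did not pass (-0.15, SE 0.118, adjusted p = 0.34), whereas the double controls were below the *Gpdh1* controls (-0.76, adjusted p = 0.00174). *Cyp6d4* was the mirror case. It was at 4.85, 5.29 and 3.60 CPM in *Gpdh1* controls, 15.0, 13.9 and 14.0 in *Gpdh1* mutants, 7.71, 8.25 and 8.59 in double controls and 14.7, 15.7 and 15.0 in double mutants, so that the controls differed (0.84, adjusted p = 0.000873) and the mutants overlapped (0.08, SE 0.102, adjusted p = 0.55). Its log2 fold changes were 1.65 (adjusted p = 0.000411) and 0.89 (adjusted p = 0.000119) and their difference was -0.76 (adjusted p = 0.00519). With the double mutant libraries summed, the difference did not pass for *Cyp6d5* (adjusted p = 0.122) or *Cyp6d4* (adjusted p = 0.0607).

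*Cyp6d2* passed in opposite directions. It was at 1.89, 2.27 and 2.06 CPM in *Gpdh1* controls and 1.31, 1.11 and 0.778 in *Gpdh1* mutants, but at 1.53, 1.45 and 1.46 CPM in double controls and 2.19, 2.12 and 1.83 in double mutants. These are 18 to 61 counts a library, and 897 exonic bases overlap *nsr* on the other strand. The log2 fold changes were -0.94 (SE 0.212, adjusted p = 0.0126) and 0.47 (SE 0.127, adjusted p = 0.022), and the difference of 1.41 passed (SE 0.237, adjusted p = 0.00192). The rise in double mutants was lost without double control replicate 2 or 3 and without double mutant replicate 1 or 2. It was also lost in DESeq2, with the replicate block and with the summed libraries, with values of 0.42 to 0.54. *Cyp6v1* on the X was lower in double mutants (log2 fold change -0.33, adjusted p = 0.00445, but 0.0932 with the summed libraries; levels 21.3 to 23.4 CPM against 27.2 to 30.0) and not in *Gpdh1* mutants (0.11, adjusted p = 0.384). This difference of -0.44 (adjusted p = 0.0188) was lost without *Gpdh1* mutant replicate 1 or double mutant replicate 3 and with the summed libraries (adjusted p = 0.114 with the latter, and values of -0.50 to -0.36 over all alternatives), and 557 of its exonic bases overlap an antisense RNA. *Cyp6u1* passed nothing, at 21.3 to 37.7 CPM over all libraries, nor did *Cyp6t1*, at 0.214 to 0.723 CPM.

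All 6 Cyp9 genes were higher in double mutants and 4 of them in *Gpdh1* mutants, against 25.3% and 17.9% of all genes. The family summed to 272, 208 and 225 CPM in *Gpdh1* controls, 580.1, 497 and 536 in *Gpdh1* mutants, 263, 242 and 257 in double controls and 707, 707 and 710.3 in double mutants. *Cyp9b2* had the highest level of the family in every mutant library. It was at 114, 68.8 and 73.8 CPM in *Gpdh1* controls and 246, 223 and 254 in *Gpdh1* mutants, and at 97.0, 75.9 and 105 CPM in double controls and 319, 318 and 319 in double mutants. Its log2 fold changes were 1.5 (SE 0.187, adjusted p = 0.00138) and 1.78 (SE 0.121, adjusted p = 7.98e-05). Its paralog and neighbour *Cyp9b1* was at 20.1, 13.2 and 15.5 CPM and 68.0, 47.1 and 54.7 CPM in the *Gpdh1* cross, and at 18.9, 14.9 and 19.2 CPM and 59.0, 60.5 and 55.8 CPM in the double cross. Its log2 fold changes were 1.80 (SE 0.184, adjusted p = 0.000795) and 1.72 (SE 0.106, adjusted p = 5.38e-05). For neither paralog did the changes differ at this threshold, by 0.29 with an SE of 0.244 for *Cyp9b2* and by -0.07 with an SE of 0.231 for *Cyp9b1*. As for the Cyp6a pair, reads shared by the paralogs were not counted, and their sum stood 2.93 and 3.42 times above the controls.

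*Cyp9c1* and *Cyp9f2* were also higher in both mutants. *Cyp9c1* was at 84.1, 74.6 and 83.5 CPM and 192, 146 and 149 CPM in the *Gpdh1* cross and at 89.0, 97.1 and 75.7 CPM and 164, 169.5 and 169.6 CPM in the double cross, with log2 fold changes of 1.01 (adjusted p = 0.00113) and 0.94 (adjusted p = 0.000316). An antisense RNA overlaps 1711 of its 1743 exonic bases, and without the strand setting the effect of this overlap on the counts is not known. *Cyp9f2* was at 40.5, 35.2 and 38.0 CPM in *Gpdh1* controls, 62.4, 68.4 and 67.8 in *Gpdh1* mutants, 45.8, 42.2 and 43.0 in double controls and 147, 141 and 149 in double mutants. The groups did not overlap in either cross, the log2 fold changes were 0.81 (SE 0.0701, adjusted p = 0.00048) and 1.74 (SE 0.0538, adjusted p = 4.47e-06), and the difference of 0.93 passed (SE 0.0875, adjusted p = 9.84e-05).

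*Cyp9h1* and *Cyp9f3* were higher in double mutants without a rise in *Gpdh1* mutants. *Cyp9h1* was at 3.19, 2.57 and 2.57 CPM and 1.91, 2.27 and 1.99 CPM in the *Gpdh1* cross and at 2.16, 2.17 and 2.53 CPM and 3.41, 3.46 and 3.19 CPM in the double cross. Its log2 fold changes were -0.43 (adjusted p = 0.0551) and 0.55 (adjusted p = 0.00718), which differed by 0.99 (SE 0.173, adjusted p = 0.00241). *Cyp9f3*, the neighbour of *Cyp9f2* on 3R, had values of -0.36 (adjusted p = 0.0612) and 0.44 (adjusted p = 0.00878), with a difference of 0.81 (adjusted p = 0.00542). The rise in double mutants was lost for both with the summed libraries (adjusted p = 0.129 and 0.135).

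In the Cyp28 family 1 gene rose and 2 fell. *Cyp28a5* was at 58.0, 46.1 and 45.1 CPM in *Gpdh1* controls, 127, 113 and 135 in *Gpdh1* mutants, 45.7, 48.4 and 47.9 in double controls and 88.5, 91.6 and 93.0 in double mutants. The mutants stood apart from the controls in both crosses, with log2 fold changes of 1.33 (SE 0.116, adjusted p = 0.00048) and 0.94 (SE 0.0469, adjusted p = 2.42e-05), and the difference of -0.38 did not pass (adjusted p = 0.0581). The neighbours *Cyp28d1* and *Cyp28d2*, known from nicotine resistance, lie 731.2 and 734.3 kb from *Gpdh1* on 2L. *Cyp28d2* was at 4.94, 4.58 and 4.16 CPM and 3.01, 3.67 and 3.63 CPM in the *Gpdh1* cross and at 6.01, 6.58 and 5.28 CPM and 1.76, 1.66 and 1.90 CPM in the double cross. It was the only member to fall past the fold limit within a cross, by -1.75 on the log2 scale in double mutants (SE 0.121, adjusted p = 8.42e-05). In *Gpdh1* mutants it was -0.40 (adjusted p = 0.0387), and the difference was -1.34 (SE 0.171, adjusted p = 0.000453). The call in *Gpdh1* mutants was lost without any single library of that cross except *Gpdh1* control replicate 3. It was also lost in DESeq2, with no count filter and with the replicate block (-0.47 to -0.31 over all alternatives).

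*Cyp28d1* differed most between the controls. It was at 77.9, 75.1 and 74.2 CPM in *Gpdh1* controls, 42.2, 54.7 and 51.0 in *Gpdh1* mutants, 33.3, 32.7 and 35.4 in double controls and 29.6, 29.7 and 30.4 in double mutants. The double controls lay below the *Gpdh1* controls by a log2 fold change of -1.16 (SE 0.0808, adjusted p = 2.99e-05), the change of largest size among the members in this comparison. Within the crosses the values were -0.62 (adjusted p = 0.00316) and -0.18 (adjusted p = 0.028). The second was lost without double control replicate 3 and without any 1 of the double mutant libraries. It was also lost with all 12 libraries in 1 fit, with the replicate block and with the summed libraries, with values of -0.19 to -0.13. The difference between the crosses was 0.44 (SE 0.113, adjusted p = 0.0165) and did not pass with the summed libraries (adjusted p = 0.106). *Cyp28c1* on the X had 3 to 14 counts a library and passed nothing.

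Of the small families, *Cyp309a1* on 2L rose most in double mutants. It was at 38.5, 23.4 and 35.9 CPM in *Gpdh1* controls and 50.7, 51.8 and 52.8 in *Gpdh1* mutants. In the double cross it went from 30.6, 27.3 and 30.2 CPM to 116, 118 and 119 CPM. The log2 fold changes were 0.67 (SE 0.167, adjusted p = 0.0187), lost without *Gpdh1* mutant replicate 2 or 3 (0.48 to 0.80 over all alternatives), and 2.0 (SE 0.0594, adjusted p = 3.84e-06). Their difference of 1.34 passed (SE 0.198, adjusted p = 0.000972). Its neighbour *Cyp309a2* had 4 counts in all in *Gpdh1* controls, 19 in *Gpdh1* mutants, 2 in double controls and 34 in double mutants, under the filter for a test. *Cyp310a1*, also on 2L, was at 29.4 to 32.4 CPM and 25.7 to 33.5 CPM in the *Gpdh1* cross, at 34.0, 31.0 and 32.6 CPM in double controls and at 18, 19.2 and 16.9 CPM in double mutants. It fell only in double mutants (log2 fold change -0.85, SE 0.0658, adjusted p = 0.00013, against -0.06 with adjusted p = 0.677), and the difference of -0.79 passed (SE 0.126, adjusted p = 0.00156).

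Across the clan the difference between the crosses was positive for 12 members and negative for 7 of 34 tested, where 12% and 13.5% of 10880 genes passed in these directions. The control groups differed for 4 members in each direction (14.1% and 12.3% of all genes): *Cyp28d2*, *Cyp6a17*, *Cyp6d4* and *Cyp9f2* were higher and *Cyp28d1*, *Cyp6a16*, *Cyp6a20* and *Cyp6d5* lower in double controls than in *Gpdh1* controls. *Cyp28d1*, *Cyp6d4* and *Cyp6d5* among these passed under every alternative run. Only 1 or 2 members were higher, in place of 4, without any 1 library other than *Gpdh1* control replicate 1 (4) and double control replicate 3 (3). Over all alternatives, passing or not, the log2 fold change ranged from 0.31 to 0.47 for *Cyp28d2* and from 0.23 to 0.42 for *Cyp6a17*. It ranged from 0.15 to 0.25 for *Cyp9f2* and from -0.56 to -0.30 for *Cyp6a16*. The *Cyp6a16* call was lost without any 1 of the *Gpdh1* controls or without double control replicate 1 or 2. It was also lost with the replicate block and with the summed libraries. Of the 19 members whose changes differed between the crosses, 12 had controls that did not pass this test. Double mutants were higher than *Gpdh1* mutants for 13 members and lower for 8 (18.9% and 20% of all genes). By chromosome arm, all 6 tested members on 2L passed this last comparison, 5 lower and only *Cyp309a1* higher, while 10 of 20 on 2R were higher and 2 lower. The call of *Cyp28a5* was lost when the double mutant libraries were summed. Within the crosses, 2 of the 6 on 2L were higher and 2 lower in *Gpdh1* mutants, and 2 were higher and 3 lower in double mutants. The shares of all genes on each arm are not given here.

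The members share the reductase, cytochrome b5 and heme, and their regulators include the Nrf2 homologue *cnc* with its inhibitor *Keap1* and partner *maf-S*, and the nuclear receptor *Hr96*. The P450 reductase gene *Cpr* was at 364 to 468 CPM in *Gpdh1* controls and 308.96 to 335 in *Gpdh1* mutants (log2 fold change -0.36, adjusted p = 0.0237), and at 227 to 307.8 and 263 to 272 CPM in the double cross (0.01, adjusted p = 0.931). *Cyt-b5* did not pass in either cross. *Cyt-b5-r*, which was listed with these genes but is not shown here to be a P450 partner, was higher in both (0.49 and 0.51, adjusted p = 0.00571 and 0.000186). Among 9 genes of heme synthesis and breakdown, 4 were higher in *Gpdh1* mutants and none was lower, and in double mutants 2 were higher and 3 lower. *Alas*, the rate-limiting enzyme of heme synthesis, was higher in both (1.03 and 0.61, adjusted p = 0.00179 and 0.00448). *Pbgs*, which makes porphobilinogen, rose in *Gpdh1* mutants and fell in double mutants (0.56 and -0.36, adjusted p = 0.00102 and 0.00136), a difference of -0.92 (adjusted p = 5.3e-05). Of 6 regulators, *cnc* and *Hr96* were higher in both mutants (*cnc* 0.20 and 0.29, *Hr96* 0.24 and 0.39), *Keap1* and *maf-S* in double mutants (0.47 and 0.31), and *tgo*, the partner of the dioxin receptor homologue *ss*, was lower in double mutants (-0.37). Of all genes, 17.9% rose and 20.2% fell in the *Gpdh1* cross, and 25.3% and 25.9% in the double cross. Counting *Cpr*, *Cyt-b5*, *Cyt-b5-r*, heme genes and regulators together, 7 of 18 rose and 1 fell in *Gpdh1* mutants. In double mutants 7 rose and 4 fell. Fewer of these, and fewer of all genes, passed in double mutants when the double mutant libraries were summed.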

How the data were processed

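Whole larvae were sequenced in 4 genotype groups of 3 libraries. The deposited values are unnormalized counts of reads per gene for 17185 genes. According to the submitters' processing notes the authors used bcl2fastq 2.20.0.422, cutadapt 1.12, HISAT2 2.1.0 and HTSeq 0.9.0; strand setting and genome build are not given in the sources used here, and the paper itself describes Salmon, tximport and DESeq2. The counter's 5 summary lines were removed (reads aligned to several places were 8.06% to 14.7%). Symbols came from a BDGP6.54 table for 17059 genes, and 1 member was named from the paper's table. Each mutant was compared with its control on 6 libraries in edgeR 4.0.16 (R 4.3.3; package filter at a minimum count of 10, TMM, quasi-likelihood F test, Benjamini-Hochberg adjustment over all genes tested); comparisons across the crosses used all 12 libraries with 1 coefficient per group. Alternatives were DESeq2, RLE size factors, other count filters, a replicate block, all 12 libraries in 1 fit, summed double mutant libraries, a fold limit and leaving out each library. Fits were tested on simulated counts with 200 changed genes. These were drawn with the same spread in every group, so they could not check the unequal spread seen here. Members, lists and tests were chosen with earlier results of these data known. Genes described in full were up to 8 members per direction with a log2 fold change beyond 1 and groups that do not overlap in a contrast, up to 6 per direction in the difference, and the 5 highest per kilobase. The paper describes the libraries as biological replicates of pooled larvae; the labels hold no batch or date. No genome sequence was used here.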

Additional observations from a re-analysis of the deposited data

Results flagged for a closer look

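The change in double mutants differed from that in *Gpdh1* mutants, by an interaction term fitted on all 12 libraries, for 19 CYP3 clan genes. The difference in log2 fold change, double minus *Gpdh1* cross, was 2.64 for *Cyp6g1*, 1.41 for *Cyp6d2*, 1.34 for *Cyp309a1*, 1.23 for *Cyp6a21*, 0.99 for *Cyp9h1*, 0.93 for *Cyp9f2*, 0.93 for *Cyp6a9*, 0.88 for *Cyp6a2*, 0.81 for *Cyp9f3*, 0.61 for *Cyp6d5*, 0.54 for *Cyp6a17* and 0.44 for *Cyp28d1*. It was -1.41 for *Cyp6a14*, -1.34 for *Cyp28d2*, -1.07 for *Cyp6a23*, -0.79 for *Cyp310a1*, -0.76 for *Cyp6d4*, -0.75 for *Cyp6a16* and -0.44 for *Cyp6v1*. For *Cyp6d4* and *Cyp6d5* the control groups differed and the mutant groups did not pass the test. *Cyp28d1*, *Cyp28d2*, *Cyp6a16*, *Cyp6a17* and *Cyp9f2* passed it in both comparisons. Of these control calls, only those of *Cyp28d1*, *Cyp6d4* and *Cyp6d5* passed under every alternative.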

How the results depend on the processing

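Every alternative kept the direction of every member that passed. Of 22 members that passed in *Gpdh1* mutants, 16 passed under all alternatives, as did 18 of 25 in double mutants, 13 of 19 for the difference, 3 of 8 between the controls and 16 of 21 between the mutants. Requiring a log2 fold change beyond 1 left 11 higher and 0 lower in *Gpdh1* mutants, 12 and 1 in double mutants, 4 and 3 for the difference, 0 and 1 between the controls and 5 and 2 between the mutants. The last 3 comparisons tested 34 members and 10880 genes. Of all these genes, the same limit left 467 and 364 for the difference, 165 and 458 between the controls and 460 and 646 between the mutants. Of the partner, heme and regulator genes the limit left 1 higher and 0 lower in *Gpdh1* mutants and 0 and 0 in double mutants. Summing the double mutant libraries, which takes the spread from the remaining groups, left 2 members lower in double mutants, 4 negative differences, 1 member higher between the controls, and 1 partner, heme or regulator gene higher and 0 lower; over all genes it moved the counts in double mutants from 2690 and 2757 to 947 and 608. Members higher in double than in *Gpdh1* heterozygotes, 4 in the fit reported, were 2 with RLE size factors, DESeq2 or at least 10 counts in every library, and 1 with the replicate block. The cause was not tested. Leaving out each library in turn gave 1 to 4 of these, 14 to 17 members higher in *Gpdh1* mutants and 20 to 23 in double mutants, and 4 to 6 higher and 0 to 1 lower partner, heme and regulator genes in *Gpdh1* mutants. All 12 libraries in 1 fit gave 6 members lower in *Gpdh1* mutants. Replicate numbers did not pair the samples (correlations of -0.22 to -0.098 in the *Gpdh1* cross and -0.0089 to 0.02 in the double cross); the replicate block left 15 members higher in *Gpdh1* mutants and 20 in double mutants, and 0 partner, heme or regulator genes lower in *Gpdh1* mutants. Depth limits *Cyp28c1* and *Cyp6t1*, and the members under the filter.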
